A study of Mus musculus with 6 samples.

Results

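The lysosomal cysteine cathepsins are described here through the transcripts of 9 genes, *Ctsk*, *Ctsb*, *Ctsc*, *Ctsf*, *Ctsh*, *Ctsl*, *Ctso*, *Ctss* and *Ctsz*, chosen by symbol among 22601 genes in the deposited count table. All 9 were found there and all 9 passed the filter on low counts, beside 13483 genes tested. Read counts were held for 6 libraries, of which 3 came from WT mice and 3 from *Slc37a2* KO mice, all on a C57BL/6N background. *Slc37a2* encodes a solute carrier related to the sugar phosphate exchangers, and the KO mice were homozygous for the tm2a allele, carried in every cell and derived from 1 embryonic stem cell clone. The sample labels describe bone marrow macrophages (BMMs) kept in M-CSF and then turned into osteoclasts over 5 days by RANKL (10 ng/ml) together with M-CSF (2 ng/ml), a treatment shared by both genotypes. The results text of the study likewise names osteoclasts of WT and KO mice as the material of its RNA sequencing. Its methods instead describe RNA of whole femurs and tibias from male and female mice, and the labels alone could not settle this difference. Every column heading carries an age of 11 weeks and the letter F, whose meaning is not stated, but no replicate number. Libraries are therefore named by the code in the heading, taken here as the animal: K090, L080 and L082 for WT, and K089, L078 and L081 for *Slc37a2* KO.

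Cysteine cathepsins are proteases of the papain family. They are made as inactive proenzymes, carried to lysosomes by mannose 6-phosphate receptors and other sorting proteins, and activated in the acidic lumen. In osteoclasts, secretory lysosomes fuse with the ruffled border and release cathepsin K, which cleaves type I collagen in the space between the cell and bone. In macrophages, related enzymes degrade endocytosed protein, and cathepsin S trims the invariant chain of MHC class II.

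Depth lay between 27552183 and 42522292 counts a library, with TMM scaling factors of 0.931 to 1.06. Levels of single genes are given as scaled CPM, computed with the TMM-scaled library size. Sums over a marker list are given as CPM of the library totals, without TMM scaling. *Slc37a2* itself had 1857, 2151 and 2440 scaled CPM in WT libraries K090, L080 and L082, and 45.3, 32.1 and 36.9 in KO libraries K089, L078 and L081, so the libraries matched their labels. Markers of osteoclasts were high in every library, with a summed level of 34349 to 46099 CPM in WT and 37655 to 56923 in KO over 11 genes, led by *Mmp9*. Markers of macrophages summed to 3922 to 4319 CPM in WT and 4063 to 4341 in KO over 9 genes, led by *Csf1r*, which osteoclasts also express. Stromal and osteoblast markers summed to 1027 to 1987 CPM in WT and 724 to 2311 in KO, led by *Col1a1*. Antigen presentation genes, led by *Cd74*, summed to 44.8 to 78.7 CPM in WT and 58.5 to 82.4 in KO. Neutrophil genes, led by *S100a8*, reached at most 1.24 CPM, and B lymphoid genes, led by *Ebf1*, at most 7.85. Of the red cell genes, *Hba-a1* had 2 counts, both in L081, and was at 0 in the other 5 libraries. Of the listed genes, the table held 5 of 7 for neutrophils, 4 of 6 for B lymphoid cells and 1 of 6 for red cells. No marker found in the table was at 0 in all 6 libraries, which says nothing of the listed genes absent from it.

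The cathepsins differed in level by about 3 orders of magnitude per length, with *Ctsk* far above the rest. Divided by exon length, *Ctsk* averaged 8713 scaled CPM per kb over the 6 libraries and ranked 1 of the 12832 tested genes with a length. *Ctsb*, an endopeptidase and carboxypeptidase of most cell types, followed at 1147 per kb (rank 22), and *Ctsz*, a carboxypeptidase, at 846 per kb (rank 40). *Ctss*, the cathepsin of antigen-presenting cells, averaged 310 per kb (rank 178). *Ctsl*, a widely expressed endopeptidase, averaged 83.0 per kb over all its annotated exons and 260 per kb over its shortest coding transcript, so its distance from *Ctss* depends on the length used. The aminopeptidase *Ctsh* averaged 23.7 per kb. *Ctsc*, the dipeptidyl peptidase that activates granule serine proteases, averaged 18.9 per kb over all exons and 40.3 over the shortest coding transcript. *Ctsf* and *Ctso*, the least studied members, were lowest at 11.7 and 8.64 per kb.

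Most neighbours in this order kept it within every library. *Ctsk* ran from 5228 to 12562 scaled CPM per kb, *Ctsb* from 1022 to 1362 and *Ctsz* from 718 to 1035. Although the last 2 ranges touch, *Ctsb* was above *Ctsz* in 6 of 6 libraries. With all exons, *Ctsl* (75.5 to 92.6) stayed below *Ctss* (138 to 493), but with the shortest transcript its range was 236 to 290 and *Ctss* was above it in 3 of 6 libraries. *Ctsc*, from 7.90 to 30.9 per kb with all exons, changed places with its neighbours: *Ctsh* (21.3 to 27.1) was above it in 4 libraries, and it was above *Ctsf* (10.5 to 12.7) in 4. It was above *Ctso* (7.42 to 9.48) in 6 of 6.

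*Ctsk* and *Ctss* are neighbours on chromosome 3 and are transcribed in the same direction. In GENCODE M21 on GRCm38, *Ctsk* lies at chr3:95499256-95509362 with 8 exons and *Ctss* at chr3:95526786-95556403, also with 8 exons, and 17423 bp separate them. Their promoters are shown because the levels of this adjacent pair went in opposite directions from library to library, as given below. RefSeq windows on GRCm38.p6 were at hand for 7 of the 9 members, not for *Ctsb* and *Ctsh*. The 130 bases before each start are printed 5′ to 3′ on the plus strand, chr3:95499080-95499209 for *Ctsk* and chr3:95526656-95526785 for *Ctss*, and capitals mark a match to an interferon response element (GAAA, any 2 bases, GAAA).
Ctsk: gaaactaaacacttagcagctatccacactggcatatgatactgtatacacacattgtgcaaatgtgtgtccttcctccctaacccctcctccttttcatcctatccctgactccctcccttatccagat
Ctss: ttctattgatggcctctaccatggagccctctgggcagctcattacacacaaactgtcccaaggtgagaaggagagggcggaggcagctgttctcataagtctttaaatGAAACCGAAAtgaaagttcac
The match in *Ctss* lies 21 to 12 bases before the start, on the plus strand. Over the 250 bases before the start, 2.98% of 32851 RefSeq windows hold this motif on either strand. Matches to CACGTG, the E-box of MiT-TFE factors, stood in *Ctsf* (79 to 74 bases before the start) and *Ctsl* (236 to 231 bases), and in 6.02% of all windows. These positions count from the RefSeq start; the whole *Ctsl* window lies inside the span that GENCODE gives the gene, and the *Ctsf* window runs past its GENCODE start, so neither is wholly upstream in that annotation. *Ctsc* held the core site of PU.1 (GAGGAAGT) on the minus strand, 151 to 144 bases before the start, as do 2.44% of windows. No member window held CATGTG (12.3% of windows) or the AP-1 site TGANTCA (6.75% of windows), and *Ctsk*, *Ctso* and *Ctsz* had no match to any of the 5 motifs, which do not overlap one another in these windows. Such matches describe letters in a short window and were not tested for binding.

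The comparison of *Slc37a2* KO with WT asked whether loss of the transporter went with different transcript levels of these proteases. None of the 9 members was called by edgeR's quasi-likelihood test at the limits of the study, which ask for a Benjamini-Hochberg adjusted p under 0.05 together with a log2 fold change beyond 1.5 in either direction. Over all genes tested, 1 gene (*Slc37a2*) was called, or 0.00742%, so a count of 0 among 9 members is what the background gives. The adjusted p was 0.969 for every member (edgeR's quasi-likelihood test). At an unadjusted p below 0.05, again 0 members passed, beside 0.712% of all genes, and the count was also 0 by DESeq2's Wald test and by the likelihood ratio test of edgeR. The log2 fold change was above 0 for 4 members and below 0 for 5, with 43.8% of all genes above 0. Its median was −0.05 over the members and −0.02 over all genes tested. The 2 genotypes overlapped in each of the 9 members, that is 0 members separated completely, against 4.31% of all genes. For single values, the smallest two-sided p that exact permutation of 3 libraries against 3 can reach is 0.1.

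*Ctsk*, the collagenase of bone resorption, had the largest estimate above 0. Its level was 7905, 10597 and 14871 scaled CPM in WT libraries K090, L080 and L082, and 18994, 8994 and 17683 in KO libraries K089, L078 and L081. K089 and L081 stood above every WT library, but L078 stood below L080 and L082, so the genotypes overlapped. The means were 11124 ± 3513 (SD, n = 3) in WT and 15224 ± 5435 in KO. This gave a log2 fold change of 0.45 with a standard error of 0.37 (95% interval −0.43 to 1.34), or 1.37-fold with an interval of 0.742 to 2.52. The estimate rested on single animals, since it fell to 0.26 without WT library K090 and rose to 0.75 without WT library L082. Without KO library L078 it was 0.72.

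*Ctsb* and *Ctsz* leaned the same way as *Ctsk*, by less. *Ctsb* had 4885, 5240 and 5325 scaled CPM in the WT libraries K090, L080 and L082, against 6462, 4846 and 5897 in K089, L078 and L081. L078 was the lowest and K089 the highest of all 6. The log2 fold change of *Ctsb* was 0.16 (standard error 0.15, interval −0.21 to 0.52). *Ctsz* had 1067, 1096 and 1246 scaled CPM in WT and 1492, 1034 and 1377 in KO, in the same order of libraries. Again L078 was lowest and K089 highest, and the log2 fold change was 0.19 (standard error 0.16, interval −0.18 to 0.57). In *Ctsb* (chr14:63122462-63145923, plus strand, 10 exons), 774 exon bases overlap *Fdft1* on the opposite strand, and in *Ctsz* (chr2:174427493-174439039, minus strand, 6 exons), 10 bases overlap *Nelfcd*. The annotation of the other members is simpler for *Ctsf* (chr19:4855130-4860918, plus strand, 14 exons), *Ctsh* (chr9:90054152-90076089, plus strand, 12 exons) and *Ctso* (chr3:81932601-81956725, plus strand, 8 exons), where no such overlap was found. Whether reads were counted by strand is not given in the sources used here, so reads from such bases cannot be assigned to one gene.

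*Ctss* and *Ctsc* had the widest intervals. *Ctss* was at 669.9, 531 and 242 scaled CPM in K090, L080 and L082, and at 188, 623 and 274 in K089, L078 and L081. Here K090, L080 and L078 were high and the other 3 libraries low, with both genotypes on both sides. The log2 fold change was −0.41 (standard error 0.53, interval −1.70 to 0.88), from means of 481 ± 218 (SD, n = 3) in WT and 362 ± 230 in KO. *Ctsc* (chr7:88278085-88310888, plus strand) followed the same division, with 162, 116 and 60.5 scaled CPM in WT and 42.1, 164 and 57.6 in KO. Its log2 fold change was −0.36 (standard error 0.58, interval −1.76 to 1.05). Both values depended on single libraries. Without KO library L078 the estimates were −1.06 for *Ctss* and −1.18 for *Ctsc*, neither of them called. Without KO library K089 the estimates were −0.085 for *Ctss* and −0.008 for *Ctsc*. Without WT library K090 they were −0.095 for *Ctss* and 0.000899 for *Ctsc*.

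The 4 remaining members varied little. *Ctsl* had 571, 499 and 534 scaled CPM in WT and 467, 537 and 466 in KO libraries K089, L078 and L081, a log2 fold change of −0.13 (standard error 0.09, interval −0.35 to 0.10). L078 again lay among the WT values, and the other KO libraries lay below them. *Ctsl* (chr13:64359337-64370890, minus strand) shares 1742 exon bases with *Gm47123* on the opposite strand and 395 with the pseudogene *Gm49230* on its own strand, so its counts are uncertain to that extent. *Ctso* had 32.1, 32.9 and 29.5 scaled CPM in WT and 25.7, 30.4 and 29.2 in KO. Its log2 fold change of −0.15 (standard error 0.09, interval −0.36 to 0.07) had the lowest unadjusted p of the 9 members, 0.144 in edgeR's quasi-likelihood test (adjusted p = 0.969). *Ctsh* was at 38.2, 39.4 and 39.4 scaled CPM in WT and at 34.5, 43.8 and 34.4 in KO. The WT libraries lay between the KO values, and the log2 fold change was −0.05 (standard error 0.11, interval −0.31 to 0.20). *Ctsf* had 23.3, 23.1 and 20.9 scaled CPM in WT and 25.2, 21.8 and 24.4 in KO, with a log2 fold change of 0.08 (standard error 0.09, interval −0.13 to 0.30).

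**Figure D1:**
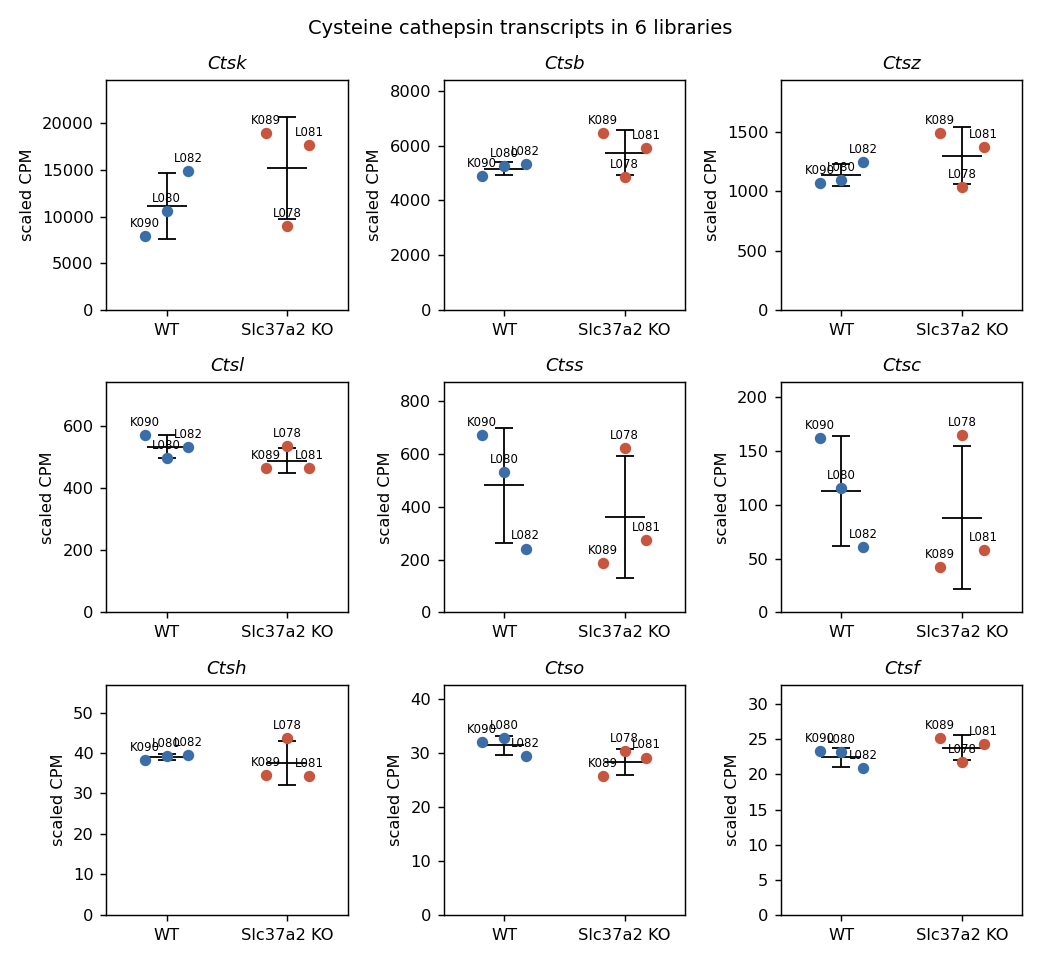
Scaled CPM (linear axes from 0) of each cathepsin in the 3 WT and 3 *Slc37a2* KO libraries, with points for libraries and bars for the mean ± SD. *Ctsk* runs from 7905 in K090 to 18994 in K089, *Ctss* and *Ctsc* are highest in K090 and L078, and the genotypes overlap in all 9 panels.

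For 7 of the 9 members, the 95% interval of the log2 fold change lay inside −1.5 to 1.5, the limit that the study used. The exceptions were *Ctss* and *Ctsc*, whose lower bounds passed −1.5. *Ctsf*, *Ctsh*, *Ctsl* and *Ctso* had the narrowest intervals, and none of these reached a log2 fold change of 0.5 in either direction.

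**Figure D2:**
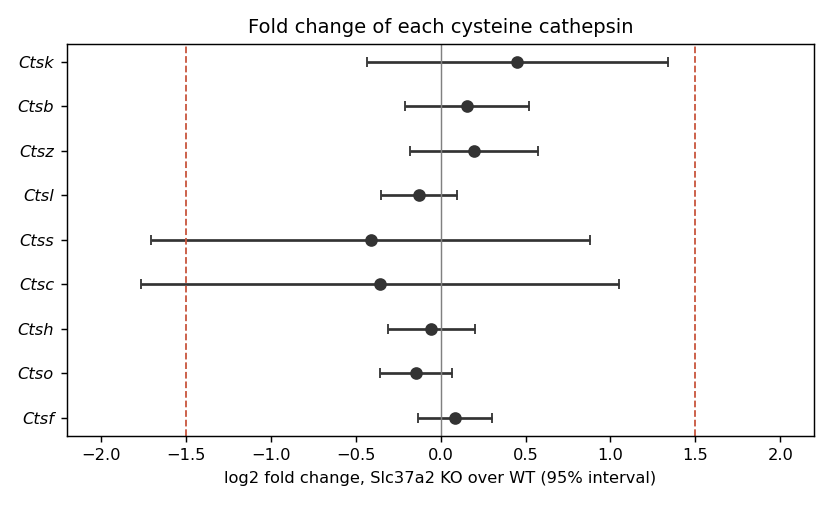
Log2 fold change of each cathepsin, *Slc37a2* KO over WT (points), with the approximate 95% interval derived from edgeR's quasi-likelihood test (bars) and dashed lines at −1.5 and 1.5. Every interval includes 0, and those of *Ctss* and *Ctsc* pass the lower dashed line.

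Variation between animals of one genotype was large for 3 members and ordinary or small for the others. On the log2 scale, the SD of *Ctsc* within genotypes exceeded that of 96.6% of tested genes, that of *Ctss* exceeded 95.5% and that of *Ctsk* 86.2%. *Ctsz* (60.0%), *Ctsb* (47.9%) and *Ctsh* (43.5%) were near the middle, and *Ctsl* (31.4%), *Ctso* (29.9%) and *Ctsf* (27.6%) were steadier than most genes. Between the highest and the lowest library, *Ctsc* differed 3.91-fold, *Ctss* 3.56-fold and *Ctsk* 2.40-fold, while *Ctsf* differed 1.21-fold.

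These differences between animals ran along a common order that crossed the genotypes. WT K090, WT L080 and KO L078 were high in *Ctss* and *Ctsc* and low in *Ctsk*, and WT L082, KO K089 and KO L081 were the reverse. The ratio of *Ctsk* to *Ctss*, in scaled CPM per kb, was 10.6, 17.9 and 55.2 in K090, L080 and L082, and 90.7, 13.0 and 58.0 in K089, L078 and L081. It thus spanned more within each genotype than between the genotype means of 27.9 ± 23.9 and 53.9 ± 39.0 (SD, n = 3; exact permutation test on the log2 ratio, two-sided, p = 0.4). As a description over the 6 libraries, with no test, Pearson's r of log2 scaled CPM was 0.96 for *Ctsk* with *Ctsz*, 0.92 for *Ctsk* with *Ctsb* and 0.99 for *Ctss* with *Ctsc*. It was −0.97 for *Ctsk* with *Ctss* and −0.98 for *Ctsk* with *Ctsc*. *Ctss* had no library between 274 and 531 scaled CPM, so these values largely reflect a division of 3 libraries from the other 3. All genes of a library also share its depth and scaling factor. The TMM factors were divided the same way: 1.04, 1.03 and 1.06 in K090, L080 and L078, and 0.993, 0.931 and 0.954 in L082, K089 and L081. Their part in the r values was not tested.

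Most osteoclast markers and part of the macrophage markers were divided the same way. *Acp5*, the tartrate-resistant acid phosphatase of osteoclasts, had 9419, 12099 and 13809 scaled CPM in K090, L080 and L082, and 18299, 10225 and 16868 in K089, L078 and L081. *Adgre1*, which encodes the macrophage surface protein F4/80, had 311.6, 272 and 80.0 in WT and 64.4, 262 and 95.8 in KO, in the same order. K090, L080 and L078 were therefore the libraries with the most *Adgre1* and the least *Acp5*. Of 11 osteoclast markers, 8 had r over 0.9 with *Ctsk*, and of 9 macrophage markers, 6 had r over 0.9 with *Ctss* and 1 had r under −0.9. The macrophage markers with the highest levels, which osteoclasts also express, followed *Ctsk* instead: *Cd68* had 1454, 1578 and 1864 scaled CPM in WT and 2252, 1491 and 2039 in KO, and *Csf1r* had r of 0.89 with *Ctsk* and −0.84 with *Ctss*. Over all genes tested, 1509 of 13482 had r over 0.9 with *Ctsk* and 1586 with *Ctss*, while 1672 had r under −0.9 with *Ctsk* and 1506 with *Ctss*. All 10 interferon response genes had r over 0.9 with *Ctss* and under −0.9 with *Ctsk*. Their summed level was 313, 207 and 117 CPM of the library totals in K090, L080 and L082, and 99.6, 238 and 129 in K089, L078 and L081. Of 6 proliferation genes, 5 had r under −0.9 with *Ctsk*, and 1 had r over 0.9 with *Ctss*. By contrast, 0 of 7 antigen presentation genes and 0 of 8 stromal genes had r beyond 0.9 with either gene in either direction. In bulk RNA, fewer cells of a type and less RNA of that gene per cell cannot be told apart, and the part of these marker levels in the cathepsin values was not tested.

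Ratios to *Acp5*, which had r of 0.99 with *Ctsk*, and to *Adgre1*, which had r of 0.99 with *Ctss*, varied less between libraries. With r that high, the narrower spread was largely fixed in advance and is not a result. The log2 ratio of *Ctsk* to *Acp5* was −0.25, −0.19 and 0.11 in K090, L080 and L082, and 0.05, −0.18 and 0.07 in K089, L078 and L081. KO exceeded WT by 0.09 on this scale (exact permutation test, two-sided, p = 0.6). For *Ctss* against *Adgre1* the log2 ratio was 1.10, 0.97 and 1.60 in WT and 1.55, 1.25 and 1.52 in KO, a difference of 0.21 (exact permutation test, two-sided, p = 0.4). Both ratios were chosen after the levels had been seen.

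**Figure D3:**
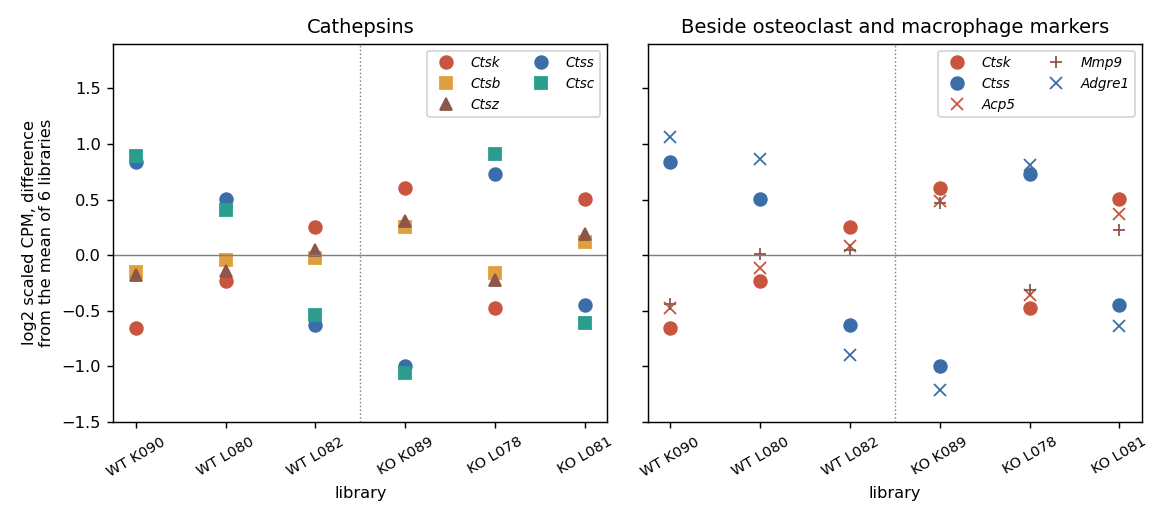
Difference of log2 scaled CPM from the mean of the 6 libraries for 5 cathepsins (left) and for *Ctsk* and *Ctss* beside the osteoclast markers *Acp5* and *Mmp9* and the macrophage marker *Adgre1* (right), with WT libraries left of the dotted line and *Slc37a2* KO libraries right of it. *Ctss*, *Ctsc* and *Adgre1* are above their means in K090, L080 and L078, where *Ctsk*, *Ctsb* and *Ctsz* are below theirs.

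The genes whose pattern over the 6 libraries was most like that of *Ctsk* were *Fbxl16*, *Ldhb*, *Nkain1*, *Dpys* and *Acot13*, with r between 0.997 and 0.998. For *Ctss* they were *Clec5a*, *Camk1d*, *Prkd3*, *Ikzf1* and *Dock2*, with r between 0.998 and 0.999. *Ctsc* ranked 105 of 13482 genes by likeness to *Ctss*, and *Ctsz* ranked 554 by likeness to *Ctsk*. With so many genes above 0.9, such ranks separate genes only finely.

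Together the 9 cathepsins held 1.60 to 2.58% of all counts. The sum was 15966, 18668 and 22195 CPM of the library totals in K090, L080 and L082, and 25807, 17267 and 24644 in K089, L078 and L081. Its mean was 18943 ± 3124 CPM (SD, n = 3) in WT and 22573 ± 4631 in KO, which did not separate (exact permutation test, two-sided, p = 0.3). Nearly all of this spread came from *Ctsk*. Without it, the other 8 members summed to 7746, 7783 and 7439 CPM in WT and 8130, 7736 and 7781 in KO, and the means of 7656 ± 189 and 7882 ± 216 differed by 2.95% (SD, n = 3; exact permutation test, two-sided, p = 0.5). On the TMM scale the same sums were 7508 ± 64.6 and 8065 ± 723 scaled CPM (SD, n = 3; exact permutation test, two-sided, p = 0.4).

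*Ctsk* supplied 51.5, 58.3 and 66.5% of the summed counts in K090, L080 and L082, and 68.5, 55.2 and 68.4% in K089, L078 and L081. The mean shares were 58.8% ± 7.51 in WT and 64.0% ± 7.66 in KO (SD, n = 3; exact permutation test, two-sided, p = 0.5). Per kb of exon the shares were higher, 74.6% ± 6.38 and 78.8% ± 6.23, with exon lengths of 1512 bp for *Ctsk* and 4743 bp for *Ctsb*. *Ctsb* was the second component, with 22.8 to 31.8% of the counts. *Ctss* ranged from 0.678% in K089 to 4.36% in K090.

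**Figure D4:**
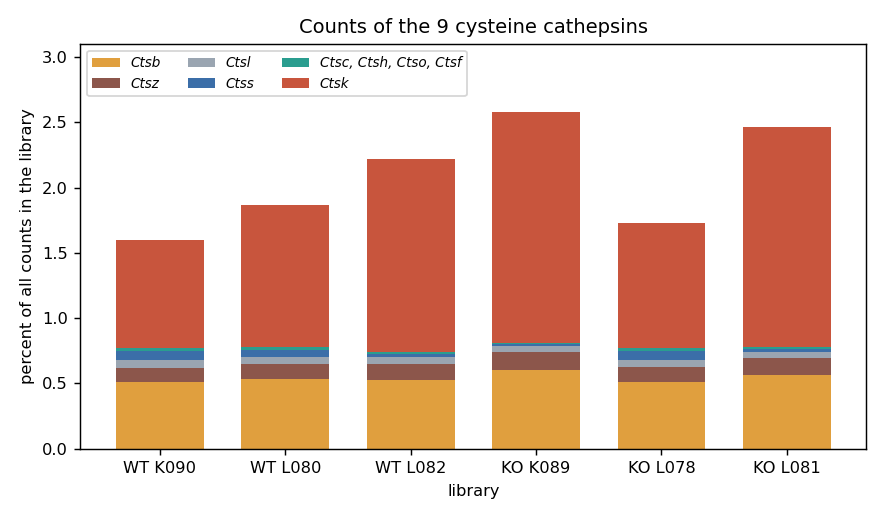
Percent of all counts in each library (bars from 0) taken by the 9 cathepsins, stacked by gene. The sum runs from 1.60% in K090 to 2.58% in K089, and the *Ctsk* segment changes while the combined height of the others stays between 7439 and 8130 CPM of the library totals.

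Genes that act on these enzymes were examined as lists chosen with earlier results of these data known, and no listed gene was called in either direction. Of 10 other mouse cysteine cathepsins, mostly placental, 5 were in the table and 0 were tested. *Ctsll3* had 34 counts over the 6 libraries and *Ctsw*, the cathepsin of cytotoxic lymphocytes, had 4.

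Of 6 genes for processing enzymes and cathepsins of other classes, 4 were tested, with 3 log2 fold changes above 0 and a median of 0.11. The aspartic protease *Ctsd* led at 3846 ± 688 scaled CPM in WT (SD, n = 3) and 3933 ± 115 in KO, a log2 fold change of 0.03 (interval −0.36 to 0.42). *Ctsa*, the serine carboxypeptidase known as protective protein, had a log2 fold change of 0.19. *Lgmn* encodes legumain, the asparaginyl endopeptidase that converts several cathepsins to their cleaved mature forms, and its log2 fold change was −0.22 (interval −0.77 to 0.34). The most extreme estimate of this list was 0.38 for *Napsa*, an aspartic protease at 8.09 scaled CPM in WT and 10.5 in KO.

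Among cystatins and other inhibitors, 6 of 18 genes were tested, 4 of them above 0, with a median of 0.24. *Cst3*, the secreted cystatin C, had 853 ± 3.56 scaled CPM in WT (SD, n = 3) and 988 ± 162 in KO, a log2 fold change of 0.21 (interval −0.11 to 0.53). *Cstb*, the cytosolic stefin B, had a log2 fold change of 0.26 (interval −0.26 to 0.78), and *Serpinb6b* one of 0.32. *Ctla2b*, related to the propeptides of cysteine proteases, had the largest estimate by size, −0.51, from 5.46 scaled CPM in WT and 3.77 in KO.

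All 11 genes of sorting to lysosomes were tested, 8 of them above 0, with a median of 0.04. *Gnptab*, a subunit of the enzyme that builds the mannose 6-phosphate tag, had a log2 fold change of 0.24 (interval −0.29 to 0.76). *Igf2r*, the cation-independent mannose 6-phosphate receptor, had one of 0.06 (interval −0.20 to 0.33), and the endocytic receptor *Lrp1* one of −0.25. The sorting receptor *Sort1* had the largest by size, −0.62 (interval −1.51 to 0.26).

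Of 7 transcription factors known to act on *Ctsk*, 3 were above 0, with a median of −0.05. *Spi1*, which encodes PU.1, had 500.2 ± 34.2 scaled CPM in WT (SD, n = 3) and 570.3 ± 77.4 in KO, a log2 fold change of 0.19. *Nfatc1*, the factor that drives osteoclast differentiation under RANKL, was level at 0.05 (interval −0.15 to 0.24). The AP-1 members *Fos* and *Jun* had log2 fold changes of −0.11 and 0.26, the latter the largest of the list by size. *Mitf*, named after its values were seen, was the 1 factor whose genotypes did not overlap, at 94.3, 95.9 and 99.7 scaled CPM in WT and 91.7, 89.5 and 92.5 in KO. Over all genes tested, 4.31% did not overlap. The log2 fold change of *Mitf*, −0.08 (interval −0.21 to 0.04), was not called.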

How the data were processed

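RNA of 3 WT and 3 *Slc37a2* KO libraries was sequenced on an Illumina NovaSeq instrument. Per the submitters' processing notes in the labels, reads were demultiplexed with bcl2fastq 2.20.0.422, the build was mm10, and edgeR 3.30.3 was used. The aligner, the counter and the annotation were not given in the sources consulted. The whole-number counts per gene that the authors deposited were not normalized. The deposited table also holds the authors' own comparison (fold changes, likelihood ratios, p-values and FDR), which was not used, nor was a list of its first genes. Columns were assigned to genotypes by their headings.

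The main analysis ran under R 4.3.3 and used edgeR 4.0.16. Low genes were removed by filterByExpr (minimum count 10, minimum total 15), libraries were scaled by TMM, and genotype was tested with glmQLFTest after glmQLFit. P-values were adjusted by Benjamini-Hochberg over the 13483 genes left. DESeq2 1.42.0, edgeR's likelihood ratio test, other scalings and filters (among them 1 CPM in 3 libraries) and leaving out each library were alternatives. Fits were tested on simulated data. Correlations used log2 scaled CPM with a prior count of 2. Exon lengths came from GENCODE M21 and promoters from RefSeq. Figures were drawn with Python 3.11.15.

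No library duplicated another: chi-square per degree of freedom was 6.72 in the most similar pair. The biological coefficient of variation was 20.8%. The headings carry a different code for each library, taken here as the animal, and the titles number the samples as biological replicates. The p-values measure the spread between these libraries.

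The members and lists were chosen with earlier results of these data known. Named were all members, *Slc37a2*, the 3 highest and the most changed gene of each list, the leading marker of each cell type, and the 5 genes most like *Ctsk* and *Ctss*. Outside this rule, *Acp5*, *Adgre1*, *Cd68*, *Mitf*, *Ctsll3* and *Ctsw* were also named, with values of these data known. One listed macrophage gene is not reported here, and list values leave it out.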

Additional observations from a re-analysis of the deposited data

How the results depend on the processing

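Of 135 estimates for single cathepsins under the alternatives, 132 kept their direction and stayed uncalled, and 3 changed sign: *Ctsc* to 0.000899 without WT library K090, and *Ctsh* to 0.0247 without KO library K089 and 0.0249 without KO library L081. Each of these moved by less than its standard error, in a fit with fewer libraries. No cathepsin was called under any alternative, and the lowest adjusted p was 0.227 (edgeR's quasi-likelihood test without KO library L078). The number of genes called over the whole table was 1, and 2 without the filter, with edgeR's likelihood ratio test or with DESeq2's Wald test.

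Leaving out each library in turn moved the log2 fold change of *Ctsk* between 0.26 and 0.75, *Ctsb* between 0.08 and 0.26, *Ctsz* between 0.11 and 0.34, *Ctss* between −1.06 and −0.08 and *Ctsc* between −1.18 and 0.000899. The ranges were −0.20 to −0.07 for *Ctsl*, −0.18 to 0.02 for *Ctsh*, −0.20 to −0.06 for *Ctso* and 0.06 to 0.14 for *Ctsf*. The members above 0 numbered 4 to 5, the difference in the *Ctsk* share 1.65 to 9.70 percentage points, and the log2 ratio of the summed level 0.14 to 0.41.

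No paired analysis was possible because neither the headings nor the sample titles state a pairing of WT with KO libraries. A term for the letter that opens each animal name (K or L, of unstated meaning and present in both genotypes), added after seeing the data, gave 0 cathepsins called, with log2 fold changes of 0.46 for *Ctsk* and −0.44 for *Ctss*. The members with wide intervals, *Ctss* and *Ctsc*, had at least 1146 counts in every library.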
